A study of Sus scrofa with 70 samples.

Results

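Retained intron (RI) events were examined in boars, in the testis and epididymis and in the bulbourethral, prostate and vesicular glands. An RI event was taken from the deposited transcript annotation wherever an intron of one transcript lay inside a single exon of another transcript of the same gene and strand, with the same outer boundaries. The annotation held 14756 such events in 5877 genes. Of these, 6981 events (47.3%), in 3672 genes and at 6917 distinct introns, had transcripts summing to at least 1 TPM in each of the 30 RNA-seq libraries (TPM is an abundance per transcript length, scaled to 1000000 in a library), and these 6981 were the events studied. The value of an event in a library is its PSI (percent spliced in), the TPM of the transcripts that keep the intron as a percentage of the TPM of all transcripts of the event, so that 100% means that every assigned transcript kept the intron.

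The samples were tissue from the glands of 12-month-old male pigs, and what part of a gland each covered is not stated. The pigs were of 2 breeds that share an origin: BMI, the Banna mini-pig inbred line, and DSE, the Diannan small-ear pig, a breed that is not inbred. Each breed and gland had 3 RNA-seq libraries and 1 Iso-seq library of full-length (FL) reads, giving 30 and 10 libraries, with no treatment in any group. The labels number the RNA-seq libraries 1 to 3 and do not say which libraries came from the same boar, so the p-values measure the spread between these samples. In such bulk tissue, fewer cells of a type and less RNA per cell cannot be told apart.

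Intron retention is the failure to remove an intron from an otherwise spliced transcript. The resulting RNA may stay in the nucleus, may be destroyed by nonsense-mediated decay (NMD) after export because the intron brings in an early stop codon, or may be translated into a changed protein. Genes of splicing factors and RNA-binding proteins are known for introns that are retained in a regulated way. In the testis, meiotic and post-meiotic germ cells are known for transcript isoforms that other tissues make little of.

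The sequences of some introns are shown first, because the results below turn on them and because they show how unlike each other the events are. They were read from the RefSeq copy of Sscrofa11.1, the build of the deposited coordinates, and are written 5′ to 3′ with the intron in capitals and the 12 flanking bases of each exon in lower case. The first 3 had a higher PSI in testis than in the other glands by RNA-seq. They were TSEN54 at chr12:5854363-5854459 on the minus strand, RPS24 at chr14:80477734-80477860 on the plus strand and NUCB1 at chr6:54207215-54207303 on the plus strand. FL reads did not show the difference in TSEN54 or NUCB1, and that of RPS24 depended on which isoforms were counted, as given below. All 3 lie between coding exons, begin with GT and end with AG.
TSEN54: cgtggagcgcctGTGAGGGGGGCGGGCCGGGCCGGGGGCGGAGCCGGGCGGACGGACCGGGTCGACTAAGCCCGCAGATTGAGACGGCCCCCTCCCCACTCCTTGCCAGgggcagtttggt
RPS24: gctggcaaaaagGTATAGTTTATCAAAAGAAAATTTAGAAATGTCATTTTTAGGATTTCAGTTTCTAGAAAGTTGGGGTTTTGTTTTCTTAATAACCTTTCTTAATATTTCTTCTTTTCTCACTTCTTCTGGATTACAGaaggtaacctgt
NUCB1: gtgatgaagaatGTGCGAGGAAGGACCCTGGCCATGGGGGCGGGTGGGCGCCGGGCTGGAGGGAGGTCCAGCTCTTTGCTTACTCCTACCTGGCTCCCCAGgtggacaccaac

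Read in the frame of the upstream exon, the TSEN54 intron of 97 bases meets the stop codon TGA from its base 2, and the RPS24 intron of 127 bases meets TAG from its base 4. The NUCB1 intron of 89 bases holds no stop in that frame, but its length is not a multiple of 3, so a transcript that keeps it changes frame.

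The next 4 introns were retained less in testis: TMEM259 at chr2:77400419-77400673, THOC1 at chr6:106077753-106077950, NXF1 at chr2:8973305-8973528 and PRPF40B at chr5:15584873-15585020, all on the plus strand and between coding exons.
TMEM259: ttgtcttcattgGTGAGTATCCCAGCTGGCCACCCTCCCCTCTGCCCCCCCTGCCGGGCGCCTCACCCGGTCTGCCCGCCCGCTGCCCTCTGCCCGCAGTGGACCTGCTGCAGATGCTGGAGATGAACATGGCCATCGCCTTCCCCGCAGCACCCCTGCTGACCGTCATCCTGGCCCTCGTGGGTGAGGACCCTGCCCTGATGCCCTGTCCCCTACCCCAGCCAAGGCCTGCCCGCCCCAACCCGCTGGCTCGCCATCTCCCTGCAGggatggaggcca
THOC1: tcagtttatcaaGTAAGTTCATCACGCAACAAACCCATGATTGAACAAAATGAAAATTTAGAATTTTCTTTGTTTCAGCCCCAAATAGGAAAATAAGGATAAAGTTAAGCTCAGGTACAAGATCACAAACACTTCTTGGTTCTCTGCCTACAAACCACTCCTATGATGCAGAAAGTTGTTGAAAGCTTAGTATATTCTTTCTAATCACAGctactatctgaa
NXF1: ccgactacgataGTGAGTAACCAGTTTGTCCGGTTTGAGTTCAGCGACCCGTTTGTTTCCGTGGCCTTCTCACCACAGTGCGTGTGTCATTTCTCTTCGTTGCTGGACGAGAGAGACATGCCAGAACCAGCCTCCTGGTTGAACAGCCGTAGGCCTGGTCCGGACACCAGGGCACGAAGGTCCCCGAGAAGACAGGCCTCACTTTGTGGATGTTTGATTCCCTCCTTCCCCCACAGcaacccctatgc
PRPF40B: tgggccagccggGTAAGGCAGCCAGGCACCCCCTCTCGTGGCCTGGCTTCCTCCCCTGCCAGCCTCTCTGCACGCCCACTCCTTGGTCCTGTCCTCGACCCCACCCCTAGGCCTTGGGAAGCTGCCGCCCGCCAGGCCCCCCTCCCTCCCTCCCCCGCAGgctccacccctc

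The THOC1 intron of 198 bases meets TAA from its base 82 and the PRPF40B intron of 148 bases meets TAG from its base 96. In NXF1, whose intron has 224 bases, the codon that spans the exon end reads TAG when the intron stays. The TMEM259 intron of 255 bases keeps the frame and holds no stop.

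The last set shows a difference between glands at NADK (chr6:63849419-63849499, minus strand), differences between breeds at SLC10A3 (chrX:125011347-125011433, minus strand), G6PC3 (chr12:19122482-19122676, minus strand) and SFRP1 (chr17:10436768-10436795, minus strand), and an event that was at 100% in every library at ABR (chr12:46828612-46828692, plus strand).
NADK: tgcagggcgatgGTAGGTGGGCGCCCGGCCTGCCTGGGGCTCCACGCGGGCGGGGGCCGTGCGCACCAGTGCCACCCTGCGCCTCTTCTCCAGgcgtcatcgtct
SLC10A3: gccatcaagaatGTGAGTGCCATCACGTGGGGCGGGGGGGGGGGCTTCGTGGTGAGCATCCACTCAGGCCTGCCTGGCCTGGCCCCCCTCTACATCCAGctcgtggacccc
G6PC3: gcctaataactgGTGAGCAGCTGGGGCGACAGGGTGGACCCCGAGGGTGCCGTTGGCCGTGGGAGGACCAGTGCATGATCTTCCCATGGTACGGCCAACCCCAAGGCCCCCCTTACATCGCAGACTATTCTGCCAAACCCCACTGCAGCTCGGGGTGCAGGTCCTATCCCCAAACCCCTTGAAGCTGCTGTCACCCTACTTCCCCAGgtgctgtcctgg
ABR: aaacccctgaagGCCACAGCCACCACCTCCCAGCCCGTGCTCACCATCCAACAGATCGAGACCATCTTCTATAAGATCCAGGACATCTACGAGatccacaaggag
SFRP1: GAGTAGCTCCACTGTGACTCCGGAGCTG

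The G6PC3 intron meets TGA from its base 168, whereas NADK, SLC10A3 and ABR keep the frame with no stop. The ABR gap of 81 bases reads through as open coding sequence and its ends are GC-AG. The SFRP1 gap of 28 bases is shown without exon bases, begins with GA, ends with TG and lies 3′ of the coding sequence. Such a gap meets the rule for an RI event although it has neither the length nor the ends of a spliceosomal intron.

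Gaps of this kind were counted before anything else. Among the 6981 events, 671 gaps were shorter than 50 bases and 456 were of 10 bases or fewer. The spliced form of 95.4% of these short gaps rested on Ensembl transcripts alone, and 82.1% of them had a mean PSI above 90%. A further 500 events of 50 bases or more had ends other than GT-AG, GC-AG or AT-AC, and 117 of this length, of 130 of any length, lay on unplaced scaffolds whose sequence was not used here. The remaining 5693 events had the length and ends of an intron, and the counts below are given for these too.

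The 6193 events of 50 bases or more with a sequence differed in composition from the introns of the annotation as a whole, as a description. Over 6129 distinct introns, their median length was 428 bases (quartiles 143 and 1052), against 1717 bases over 309138 annotated introns. The median GC content was 55.6% against 44.9%, and 26.04% were under 150 bases against 9.54%. The retained introns were thus shorter and richer in G and C. An event needs an isoform with an exon that spans the gap, and in 5961 of the 6981 events only Iso-seq isoforms held it. Long introns may be missed by such reads, and the part of this in the difference of length was not tested. GT-AG ends were about as common in both sets (88.6% and 87.3%). Scores of the splice sites against the average site, in bits, had medians of 7.13 against 7.67 at the donor and 7.80 against 8.70 at the acceptor. Donors of the minor (U12) type made up 0.653% against 0.218%.

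In the coding frame, most of the events would change the protein. Of the 6193 events, 83.2% lay between coding exons, 7.17% were 5′ and 8.98% were 3′ of the coding sequence, and 11.3% were the last intron of the spliced transcript. A stop codon in frame was found inside 80.9% of 5150 introns between coding exons, and 9.57% kept the frame with no stop. In the authors' isoform table, 52.0% of the 4913 coding Iso-seq isoforms that led the retained form were predicted NMD targets (95% Wilson interval 50.6% to 53.4%), against 26.8% of the 2639 that led the spliced form (25.1% to 28.5%). Intervals here and below cover counting error only.

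Most events were hardly retained, and a smaller class was nearly always retained. Mean PSI over the 30 libraries was under 5% in 47.6% of events, under 10% in 58.8%, and 90% or more in 19.2%. In 206 events every library was at 100%, among them ABR (a GTPase regulator), ALKBH5 (an RNA demethylase), ATP2C1 (a calcium pump of the Golgi), BAD (a regulator of apoptosis) and BPNT2 (a Golgi phosphatase), all of which had gaps of under 50 bases or without GT-AG ends. Their spliced form was an annotated transcript that received no TPM in these glands. In 19 events every library was at 0%.

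Some libraries stood apart and are named before the comparisons. DSE epididymis replicate 1 had the highest median PSI of all 30 libraries and the lowest weight (0.214, where 1 is the average library) when limma weighted libraries by their fit to their group. The study's quality table lists this library with the lowest transcript integrity and the largest unmapped share of all RNA-seq libraries, and the part of either in its PSI was not tested. The other libraries with weights under 0.6 were BMI prostate gland replicate 3 (0.398), DSE testis replicate 2 (0.508) and BMI vesicular gland replicate 1 (0.558). Summed TPM of 8 germ cell markers was 25491 to 116486 in the testis libraries and 0.0201 to 1034 elsewhere, with the lowest testis value in DSE testis replicate 2. Of 6 seminal vesicle secretion markers, the 3 that were found summed to 2522 to 4448 TPM in the vesicular glands and to 2416 TPM in BMI prostate gland replicate 2, against a median of 0.164 TPM in the prostate glands. The 4 of 6 epididymal markers that were found summed to 214 to 23576 TPM in the epididymis and to at most 7.10 TPM elsewhere, and 5 prostate markers to 89397 to 180187 TPM in the prostate gland. The share of TPM from mitochondrial genes ranged from 1.75% to 16.7%.

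The question of the first comparison was whether intron retention differs between glands. The testis stood apart from the rest. Its 6 libraries had a median PSI over the 6981 events of 1.79% at the lowest, 2.38% at the median and 2.64% at the highest. The epididymis libraries had 4.08%, 5.26% and 9.25%, the vesicular glands 3.95%, 6.42% and 7.96%, the prostate glands 4.29%, 5.89% and 7.41%, and the bulbourethral glands 4.50%, 6.08% and 6.84%. No testis library reached the lowest library of any other gland, whereas the ranges of the other 4 glands overlapped each other. Within the 5693 events with intron length and ends, the testis libraries ranged from 0.839% to 1.35% and the 24 others from 2.10% to 5.68%. The mean PSI gave the same order, 26.1% to 26.9% in testis and 27.7% to 31.2% elsewhere. The means of the testis and of the other glands were compared event by event next, since no test was made of a score over all events.

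**Figure D1:**
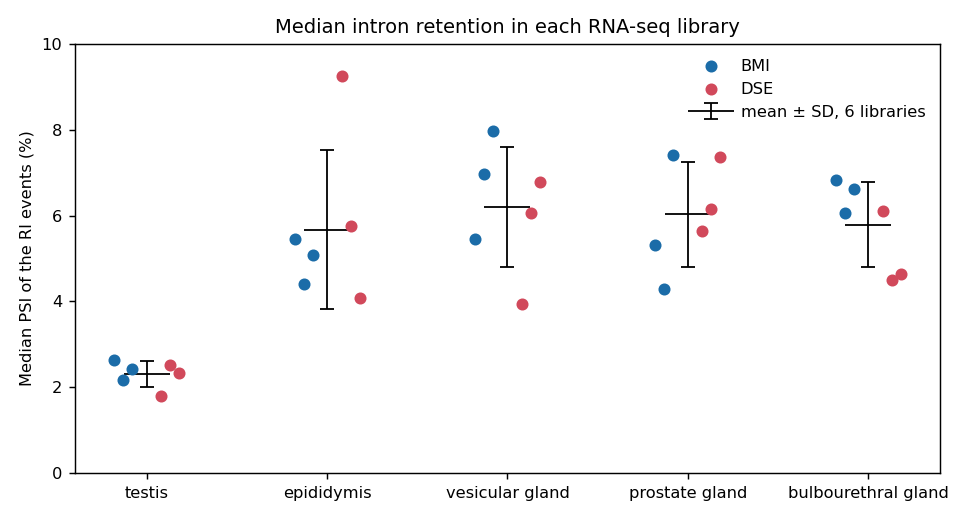
Median PSI over the 6981 RI events (vertical axis, percent) in each of the 30 RNA-seq libraries by gland, coloured by breed, with the mean and SD of the 6 libraries of a gland in black. The 6 testis libraries lie between 1.79% and 2.64%, below all 24 others, and DSE epididymis replicate 1 is the highest at 9.25%.

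Against the mean of the other 4 glands, 654 RI events in 545 genes differed in testis (limma, adjusted p under 0.05 over all 38576 alternative splicing events tested, and a difference of at least 10 percentage points). PSI was lower in testis in 547 and higher in 107. This was 9.37% of the RI events, where 12.1% of all events tested passed the same rule, so the share that changed was not high for alternative splicing in this tissue. The share of calls that were higher was smaller for RI than for each of the other 6 event types, a difference that was not tested. Higher means more of the retained intron for RI, of the included exon for skipped exons and of the longer exon for alternative splice sites. For first and last exons it means the form farther from the shared exon, and for mutually exclusive exons that of lower coordinate, by convention. Direction is thus not the same measure in each type, and shares by direction over all events mix these meanings, here and below. Only 1.53% of RI events were called higher and 7.84% lower, while over all events 5.3% were called higher and 6.81% lower. Of the testis calls, 16.4% were higher for RI, against 57.4% for skipped exons, 50.5% for alternative 5′ splice sites, 42.4% for alternative 3′ splice sites, 36.5% for alternative first exons, 43.7% for alternative last exons and 59.7% for mutually exclusive exons. Among the events with intron length and ends, 483 were called lower and 67 higher.

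The lean towards lower retention was not limited to the called events. The testis mean was below that of the other glands in 5181 events, above it in 1781 and equal in 19, with a median difference of -0.86 points over all events, -18.0 points over those called lower and 17.7 points over those called higher. In 153 of the 547 lower events and 25 of the 107 higher ones, the 6 testis libraries did not overlap the 24 others. These were 2.19% and 0.358% of the RI events tested, where 2.13% and 1.55% of all events were called lower or higher without overlap. The share of calls that were higher was 15.4% to 20.6% in every alternative fit, the omission of any 1 library included, and 12.2% among the calls with intron length and ends. Without DSE testis replicate 2, the library with the lowest sum of germ cell markers, 646 events were called. The part of cell makeup in the testis values was not tested.

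The other glands had fewer calls, and in them the calls were mostly of higher retention. In the epididymis 82 events were called, 67 of them higher (2.49% of all events tested were called there, 1.24% higher and 1.26% lower). In the vesicular gland 137 were called, 96 higher (2.99% of all, 1.63% higher and 1.36% lower). In the prostate gland 60 were called, 50 higher (1.86% of all, 1.03% higher and 0.824% lower), and in the bulbourethral gland 66 were called, 56 higher (2.2% of all, 1.07% higher and 1.13% lower). Each gland was compared with a mean that included the testis, whose PSI was low, so these contrasts share libraries with the one for testis. By an F test over the 5 glands 804 events in 650 genes were called, against 14.4% of all events tested, which is 11.5% of the RI events. Without DSE epididymis replicate 1 the epididymis had 52 calls, without BMI epididymis replicate 3 it had 49, without DSE prostate gland replicate 3 the prostate gland had 38, and without BMI bulbourethral gland replicate 1 the bulbourethral gland had 42.

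**Figure D2:**
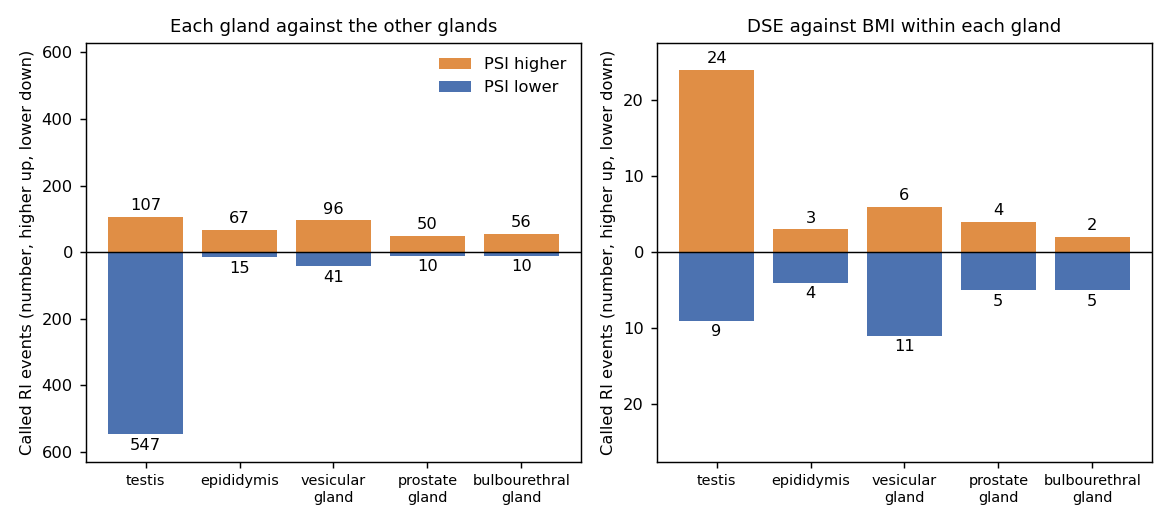
Numbers of RI events called with higher (orange, upwards) and lower (blue, downwards) PSI, by gland against the mean of the other 4 glands (left) and for DSE against BMI within each gland (right, with a narrower axis). Lower retention dominates in testis with 547 of 654 calls, and higher retention in each of the other glands.

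The calls came from events with intermediate retention. Of 3321 events with a mean PSI under 5%, 2 were called in testis, as were 21 of 785 events from 5% to 10%, 251 of 725 from 10% to 25%, 153 of 359 from 25% to 50%, 86 of 223 from 50% to 75%, 72 of 231 from 75% to 90% and 69 of 1337 above 90%. A difference of 10 points is hard to reach near either end of the scale, so the threshold itself sets part of this pattern.

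The levels of both forms differed at the events called lower. On the scale of log2(TPM + 1), the retained form was lower in testis in 425 of the 547 events and the spliced form was higher in 449, with both in 327. The median difference was -0.65 for the retained form and 0.99 for the spliced form. Of the 107 higher events, the retained form was higher in 84, the spliced form was lower in 74 and both held in 51. The total of both forms of the lower events was higher in testis in 352 events and lower in 195. Of the 6327 events not called in testis, the retained form was lower there in 4601, the spliced form was higher in 3288 and the total was higher in 3462, so a lower retained form was common among uncalled events too.

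The introns called lower in testis had a median length and base composition near those of the uncalled ones. Their median length was 480 bases and their GC content 58.0%, against 427 bases and 55.2% in the uncalled events. The introns called higher were shorter, with a median of 156 bases and 49.4% under 150 bases. Of the lower events 21.1% were the last intron of the spliced transcript and 17.1% were 3′ of the coding sequence, against 10.2% and 8.04% of the uncalled ones. The events called higher had like shares, 19.3% and 21.7%, so this position was not particular to lower retention. Over events of any length, the median mean PSI was 28.7% in the lower and 37.2% in the higher calls, against 4.37% in the uncalled ones. These are descriptions over introns, which are not independent of each other within a gene.

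Among called events whose testis libraries did not overlap the others, the largest increases of retention in testis, 1 per gene, were at ZFPL1, RPS24, TSEN54, TMF1, TRMT44, AVEN, NUCB1 and DPH7. TSEN54, a subunit of the endonuclease that splices tRNA, had a PSI of 30.0%, 41.5% and 58.5% (lowest, median, highest) in testis and of 0%, 1.89% and 12.2% in the 24 others. Every testis library was above every other library, and the difference was 39.6 ± 2.17 points (SE, adjusted p = 4.02e-12). The retained form averaged 6.93 TPM in testis and 0.502 TPM elsewhere, the spliced form 8.91 and 19.6 TPM.

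NUCB1, a calcium-binding protein of the Golgi, had 12.7%, 30.7% and 35.0% in testis and 0.270%, 1.69% and 6.64% elsewhere, a difference of 26.1 ± 1.60 points (adjusted p = 2.78e-11). The groups did not overlap, and DSE testis replicate 2 was the lowest testis library by a wide gap. It was the most abundant of these events, with forms summing to 134 TPM on average. TMF1, a Golgi-associated coiled-coil protein, had 20.8%, 36.7% and 48.3% in testis and 0%, 2.04% and 14.04% elsewhere (33.1 ± 2.47 points, adjusted p = 6.51e-10).

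RPS24, a protein of the small ribosomal subunit, had 100% in 5 testis libraries and 80.6% in the sixth, BMI testis replicate 2, and 20.8%, 41.7% and 67.5% elsewhere (53.5 ± 5.49 points, adjusted p = 1.00e-07). ZFPL1, a zinc finger protein of the Golgi, had 41.3%, 89.7% and 97.5% in testis and 6.44%, 21.4% and 32.8% elsewhere (62.1 ± 5.02 points, adjusted p = 2.38e-09). Both events rest on few and weakly expressed isoforms: the RPS24 forms together averaged 7.98 TPM and those of ZFPL1 4.51 TPM. When every isoform that spans or removes the intron was counted, whatever its outer boundaries, the difference fell to 0.0117 points in RPS24 and 2.26 points in ZFPL1, so these 2 calls hold for those isoforms and not for the gene.

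The other increases were in TRMT44 (a tRNA methyltransferase; 89.6% in testis against 58.7% elsewhere), DPH7 (an enzyme of diphthamide synthesis; 54.7% against 28.7%) and AVEN (an inhibitor of apoptosis; 72.8% against 42.7%). In each the testis libraries lay above all others. The gaps of TRMT44 and AVEN are of 43 and 2 bases, and DPH7 lies on an unplaced scaffold.

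The decreases named by the same rule reached further. PHKG2, the catalytic subunit of phosphorylase kinase in testis and liver, had 2.15%, 3.10% and 4.72% in testis and 78.5%, 91.7% and 100% elsewhere, a difference of -87.6 ± 2.18 points (adjusted p = 5.33e-18). Its retained form averaged 9.55 TPM in testis and 6.56 TPM elsewhere, and its spliced form was 302 TPM in testis against 0.744 TPM. The lower PSI of PHKG2 in testis thus went with a higher spliced form and not with a lower retained one. The intron lies 5′ of the coding sequence at chr3:17645992-17646342 and has 351 bases.

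FHIP1B, a component of a complex that links cargo to dynein, had 4.94%, 7.52% and 22.7% in testis and 41.8%, 87.8% and 100% elsewhere (-75.7 ± 5.19 points, adjusted p = 1.60e-10). TMEM259, a membrane protein of the endoplasmic reticulum known as membralin, had 0.525%, 3.10% and 6.62% in testis and 25.7%, 81.0% and 100% elsewhere (-72.3 ± 9.20 points, adjusted p = 2.29e-06). In TMEM259 the spliced form was 37.6 TPM in testis against 1.28 TPM, and the retained form 1.40 against 2.45 TPM. In both genes no testis library reached the lowest of the others, which were themselves widely spread.

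HNRNPA2B1, an RNA-binding protein of the hnRNP family, had 1.70%, 4.30% and 6.50% in testis and 20.8%, 73.5% and 97.1% elsewhere at its last intron (-63.7 ± 5.55 points, adjusted p = 7.73e-09). DNAAF5, a factor that assembles the dynein arms of cilia and flagella, had 25.2%, 26.3% and 39.9% against 86.7%, 97.8% and 100% (-66.5 ± 1.98 points, adjusted p = 1.15e-16). IQCE, a protein of the ciliary base, had 33.5%, 37.4% and 39.9% in testis and 100% in all 24 others (-62.6 ± 0.433 points, adjusted p = 7.11e-28). The spliced form of IQCE was 54.9 TPM in testis and was listed at 0 in every other library. None of these 3 groups overlapped.

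UIMC1, a ubiquitin-binding protein of DNA repair, had 21.3%, 22.2% and 29.7% in testis and 82.9%, 96.2% and 100% elsewhere (-71.9 ± 1.83 points, adjusted p = 7.56e-18). MORF4L2, a chromatin protein, had 9.58%, 23.1% and 36.0% against 75.1%, 95.9% and 100% (-71.2 ± 3.06 points, adjusted p = 6.74e-14). The gaps of both have GA-AG ends. With isoforms of noncanonical junctions left out, the difference of UIMC1 was 0 points and MORF4L2 gave no value.

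**Figure D3:**
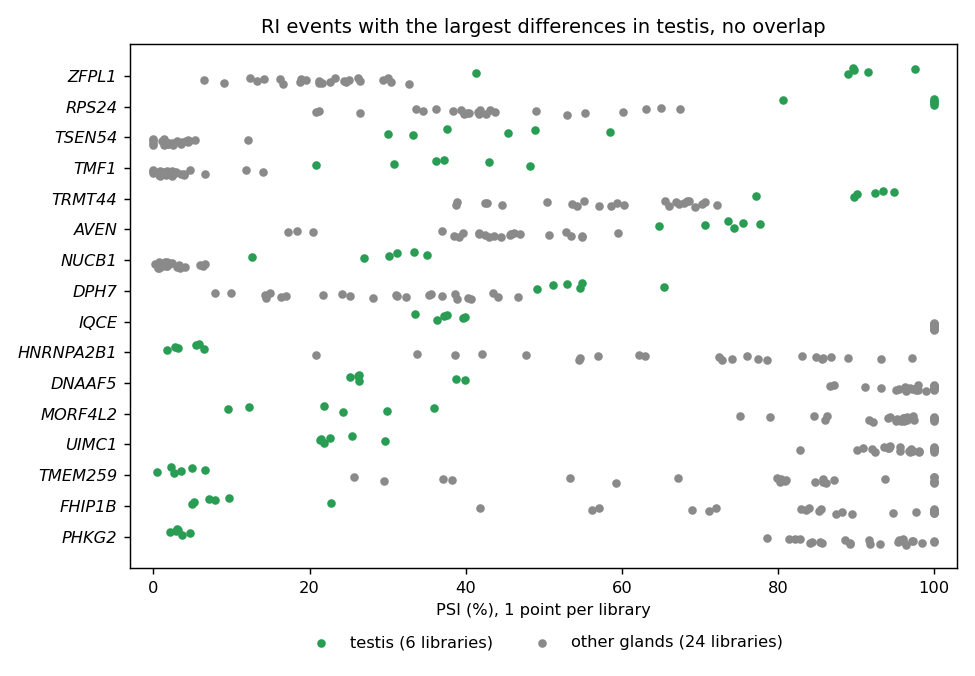
PSI (horizontal axis, percent) of 16 named events, the 8 largest differences in each direction among the called events without overlap, with the 6 testis libraries in green and the 24 others in grey, and 1 point per library. By this choice the groups do not overlap in any row. In ZFPL1 the testis library nearest to the others is at 41.3%.

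Of the genes of RNA processing and of the tissue, 10 lists were examined. For each list the count of calls and the median are set beside those of all events, where 9.37% were called and the median difference was -0.86 points. SR proteins, which bind exons and recruit the spliceosome, had 43 events in 12 genes, of which 11 were lower in testis and 1 was higher (27.9% called, median difference -1.45 points). Their introns were also retained more in general, with a median mean PSI of 28.0% against 5.75% over all events.

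Among SR proteins, TRA2A had 35.7%, 53.7% and 72.8% in testis and 70.0%, 95.9% and 100% elsewhere at an intron 5′ of its coding sequence (-39.7 ± 4.48 points, adjusted p = 4.17e-07), and a second event of TRA2A that differs by 11 bases in length gave -38.7 points. SRSF7 had 13.7%, 16.1% and 17.4% in testis and 17.9%, 33.2% and 44.7% elsewhere at an intron of 925 bases (-17.6 ± 3.27 points, adjusted p = 0.000256). TRA2A overlapped between testis and the other glands and SRSF7 did not. SRSF11 was also lower (49.9% against 91.1%, adjusted p = 0.000268) and had a second lower and 1 higher event.

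SRSF1, the founding SR protein, was at 0% in 4 testis libraries, at 25.7% in BMI testis replicate 3 and at 100% in BMI testis replicate 2, and had 0%, 73.3% and 100% elsewhere (-49.6 ± 12.4 points, adjusted p = 0.00432). Its forms summed to 4.55 TPM on average, the testis libraries spanned the whole scale, and with every spanning isoform counted the difference was -4.73 points and not called. A second SRSF1 event, at an intron of 378 bases, was lower by fewer points (85.1% against 96.0%). Smaller falls were called in SRSF2 (-13.8 points), SRSF3 (-13.1), SRSF4 (-10.9) and SRSF5 (-15.2).

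The hnRNP proteins, which bind pre-mRNA and often oppose SR proteins, had 81 events in 16 genes with 11 lower and 3 higher (17.3% called, median difference -0.32 points). Their median mean PSI was 21.4%, against 5.75% over all events. PCBP2 had 10.1%, 11.14% and 21.8% in testis and 32.4%, 58.4% and 85.5% elsewhere (-43.9 ± 5.80 points, adjusted p = 3.72e-06), with no overlap. HNRNPL moved both ways: an intron of 2179 bases had 48.5% in testis against 94.1% (-45.5 ± 6.59 points, adjusted p = 1.26e-05), and introns of 111 and 1101 bases gave 30.8 and 25.8 points. With every spanning isoform counted, the first of these was -1.71 points and not called. The other lower calls were in HNRNPA1, HNRNPA2B1, HNRNPK, HNRNPM, HNRNPU, PCBP2 and TARDBP, and the other higher one in RALY. The call of HNRNPU was lost without BMI testis replicate 1 or 2 or DSE testis replicate 1 or 3 (adjusted p = 0.0742 to 0.106).

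The spliceosome and RNA-binding splicing factors had 93 events in 37 genes with 10 lower and 2 higher calls (12.9%, median difference -0.90 points). PRPF40B, a splicing factor of the early spliceosome, had 4.31%, 5.16% and 8.95% in testis and 16.3%, 34.1% and 58.0% elsewhere (-29.6 ± 4.14 points, adjusted p = 8.19e-06). DDX39B, an RNA helicase of splicing and export, had 8.21%, 13.9% and 20.8% against 17.6%, 38.2% and 51.6% at an intron of 2037 bases (-21.8 ± 3.27 points, adjusted p = 2.03e-05). PRPF40B did not overlap between the groups and DDX39B did.

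DDX5, another RNA helicase, showed that events of one gene can point in opposite directions. At an intron of 1675 bases it had 37.7%, 54.4% and 76.6% in testis and 96.5%, 99.4% and 100% elsewhere (-44.1 ± 2.91 points, adjusted p = 8.65e-11), and introns of 1136 and 1245 bases fell by 23.97 and 32.5 points. At the 3′ end of the gene an intron of 205 bases gave 42.0 points. The events of 1675 and of 205 bases share the same 15 retained isoforms and differ in the spliced isoforms they are set against. LUC7L2, a protein of the U1 particle, was the other gene with a higher call (83.2% in testis against 48.3%, adjusted p = 0.000231).

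Splicing kinases had 2 lower calls among 16 events in 5 genes (12.5%, median difference -4.24 points). CLK4 had 0%, 1.69% and 2.87% in testis and 2.32%, 21.3% and 50.6% elsewhere (-20.6 ± 6.20 points, adjusted p = 0.0160), and CLK1 had 36.6%, 59.1% and 88.3% against 42.6%, 80.7% and 97.8% (-18.2 ± 6.44 points, adjusted p = 0.0410). Both overlapped between the groups, and the call of CLK1 was lost on omission of any of 16 single libraries.

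Factors of mRNA export and 3′ end processing had 2 lower calls among 19 events (10.5%, median difference -0.10 points). THOC1, a subunit of the THO complex that couples transcription to export, had 0.151%, 14.9% and 24.4% in testis and 13.2%, 45.4% and 68.2% elsewhere (-30.6 ± 5.93 points, adjusted p = 0.000402). NXF1, the main export receptor of mRNA and a gene known for an intron that is kept in exported transcripts, had 3.66%, 9.44% and 18.2% against 12.4%, 26.3% and 49.7% (-19.4 ± 3.19 points, adjusted p = 6.50e-05). The ranges of both genes overlapped at their ends. The NMD factors had 1 lower call among 19 events (5.26%, median difference -0.23 points), in the last intron of SMG6, an endonuclease of that pathway (62.4% in testis against 99.7%, adjusted p = 3.47e-08).

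Genes known for detained introns in mammals had 12 lower and 3 higher calls among 64 events in 13 genes (23.4%, median difference -0.88 points), and this list shares CLK1, CLK4, DDX5, NXF1 and RBM39 with the lists above. Its events had a median mean PSI of 21.3%, against 5.75% over all events. OGT, the enzyme that adds O-GlcNAc to proteins and has a detained intron that responds to it, had 7.20%, 10.5% and 17.3% in testis and 12.0%, 45.6% and 73.6% elsewhere (-34.4 ± 5.03 points, adjusted p = 1.46e-05). MAT2A, the enzyme that makes S-adenosylmethionine, had 39.0%, 52.4% and 83.7% against 56.5%, 100% and 100% at its last intron (-35.2 ± 5.53 points, adjusted p = 3.60e-05). Both overlapped. The higher calls were in CCNL2, DDX5 and TAF1D, and that of CCNL2, a cyclin of splicing speckles, was lost without BMI testis replicate 1 (18.4 points, adjusted p = 0.150), DSE testis replicate 2 (13.1 points, 0.179) or DSE testis replicate 3 (26.5 points, 0.0511). The CCNL2 difference turned to -7.42 points with every spanning isoform counted (adjusted p = 0.00933).

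Ribosomal protein genes, which are spliced efficiently, had 26 events in 19 genes with a median mean PSI of 0.453% and 1 call in testis, that of RPS24 (3.85%). Secretory pathway genes had 57 events in 26 genes, a median mean PSI of 0.666% and 2 calls (3.51%), LMAN1 lower (42.1% against 73.2%, adjusted p = 6.21e-05) and XBP1 higher at a gap of 17 bases (98.0% against 83.2%, adjusted p = 0.0279). The call of XBP1 was lost without any 1 of 5 testis libraries, all but BMI testis replicate 3, at differences of 14.4 to 14.8 points. Of the 54 flagellum and sperm genes, 13 had 31 RI events in the annotation, of which 4 events in 2 genes had 1 TPM in every library, too few to describe the list. The counts of the 10 lists were not tested against each other.

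Some of these named calls in testis did not hold in the libraries of 1 breed alone, where 3 testis libraries were set against 12 others by limma. In BMI alone the calls of SRSF1 (adjusted p = 0.590), SRSF11 (0.102), CLK4 (0.404), LUC7L2 (0.128) and THOC1 (0.108) were lost, and in DSE alone those of SRSF7 (0.0684) and LMAN1 (0.111). Those of HNRNPU (0.241 in BMI and 0.163 in DSE), CLK1 (0.0765 and 0.573), CCNL2 (0.211 and 0.198) and XBP1 (0.219 and 0.0898) were lost in both. All kept their direction.

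The FL read counts were not used to choose the events, but they come from the same 10 long-read libraries, with 231413 to 458697 FL reads each and no replicates, from which the Iso-seq isoforms of the annotation were built. Of the 6981 events, 6586 had at least 1 Iso-seq isoform in the retained form and 5961 had no Ensembl transcript in it, so the long reads are not independent of the rule. An Ensembl transcript was credited only with the reads of Iso-seq isoforms that matched all of its splice junctions. In 1435 events the spliced form held Ensembl transcripts only, so it could receive few FL reads whatever its level. The median FL PSI, over events with at least 10 FL reads in a library, was 0% in both testis libraries and 0.450% to 7.14% in the 8 others. The mean FL PSI over these events was 26.5% and 25.8% in testis and 26.8% to 30.8% in the others, and with at least 20 FL reads it was 26.5% and 25.5% in testis and 25.98% to 29.1% elsewhere. Pooled over the events, 22.8% and 22.97% of testis FL reads kept the intron, against 21.5% to 26.9% in the others. Testis thus stood apart by the median, but not by the pooled share of reads. Of 4804 events with at least 10 FL reads in testis and in the other glands, FL PSI was lower in testis in 3157, higher in 828 and equal in 819. Of 322 such events called lower by RNA-seq it was lower in 258 and higher in 38, and of 52 called higher it was higher in 23 and lower in 8. A lower FL PSI in testis was also common among events that were not called: of the 3951 events with intron length and ends it was lower in 3008 (76.1%), in 249 of the 290 called lower (85.9%) and in 2752 of the 3631 not called (75.8%). The median difference was -12.2 points in the events called lower and -1.13 points in those not called. Of the higher calls, 21 had equal FL PSI on both sides.

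**Figure D4:**
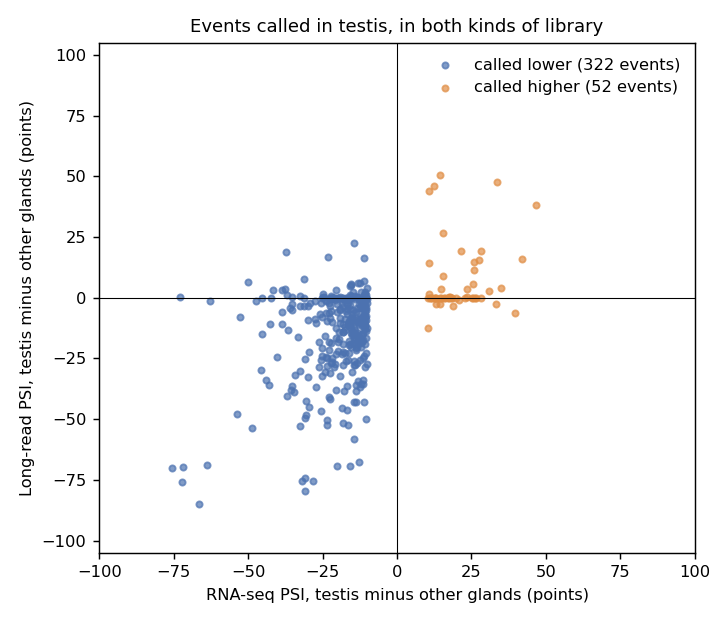
Difference in PSI between testis and the other glands by RNA-seq (horizontal axis, percentage points) and by full-length reads (vertical axis, percentage points) for the 374 events called in testis that had at least 10 FL reads on both sides. Of the 322 events called lower, 258 lie below the horizontal line at 0, and of the 52 called higher, 23 lie above it.

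Single events showed the same split. The FL PSI of UIMC1 was 27.8% in testis (84 of 302 reads, 95% Wilson interval 23.1% to 33.1%) and 97.5% elsewhere (118 of 121, 93.0% to 99.2%). THOC1 had 12.4% (17 of 137, 7.89% to 18.97%) against 55.04% (142 of 258, 48.9% to 61.0%), PRPF40B had 1.74% (2 of 115, 0.478% to 6.12%) against 46.8% (36 of 77, 36.0% to 57.8%), and OGT had 0 of 101 reads, with an upper bound of 3.66%, against 31.6% (104 of 329, 26.8% to 36.8%). In these 4 genes both methods gave lower retention in testis. At UIMC1, whose gap has GA-AG ends, the RNA-seq difference was 0 points with isoforms of noncanonical junctions left out. The FL counts did not leave those isoforms out, so they are not separate support for UIMC1. Other lower calls were not lower in the FL reads: SMG6 kept the intron in 76 of 76 testis reads (95.2% to 100%) and 13 of 16 others (57.0% to 93.4%), and CLK4 in 3 of 32 (3.24% to 24.2%) and 8 of 131 (3.13% to 11.6%). At IQCE, which RNA-seq put at 37.4% in testis, 246 of 249 testis FL reads kept the intron. Among the higher events, TSEN54 had 0 of 15 retained FL reads in testis (upper bound 20.4%) and 7 of 115 elsewhere, TMF1 had 0 of 264 (upper bound 1.43%) and 18 of 753, and NUCB1 had all reads retained on both sides, 320 of 320 and 859 of 859. For TSEN54, TMF1 and NUCB1 the long reads therefore did not show the difference that the RNA-seq values gave, and the intervals lay outside the RNA-seq values in testis. The upper bound was below the lowest of these values in TMF1 (20.8%) and TSEN54 (30.0%), and in NUCB1 the lower bound of 98.8% was above the highest, 35.0%. At IQCE the lower bound of 96.5% was likewise above the highest RNA-seq value in testis, 39.9%. In NUCB1 the FL reads of the other glands also lay far from their RNA-seq values given above, so the 2 measures differed on both sides. Which of them holds was not tested. Of the other events called higher, DPH7 was 14.9 points higher in testis by FL reads and DDX5, at its intron of 205 bases, 15.8 points. Of the 52 higher calls, 23 were higher by FL reads, 8 lower and 21 equal.

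In the other glands FL reads mostly shared the direction of the higher calls. FL PSI was higher in 36 of 44 events called higher in the epididymis, in 18 of 22 in the prostate gland and in 20 of 24 in the bulbourethral gland, but in only 29 of 51 in the vesicular gland. Over all events with enough FL reads it was higher in 2535 of 5196 in the epididymis, 1679 of 4648 in the prostate gland, 2235 of 4960 in the bulbourethral gland and 1782 of 4677 in the vesicular gland. The few lower calls were mostly not lower by FL reads, except in the vesicular gland. In the same order of glands, FL PSI was lower in 2 of 6, 3 of 8, 0 of 2 and 11 of 16 of them. Over all events it was lower in 1779, 2190, 1910 and 2121.

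Called events in which all 6 libraries of a gland lay outside the other 24 were 3 in the epididymis, all higher, 5 in the vesicular gland, 2 higher and 3 lower, 0 in the prostate gland and 1, higher, in the bulbourethral gland. Over all events tested this held for 0.0207% higher and 0.0285% lower in the epididymis, 0.0285% and 0.0181% in the vesicular gland, 0% in both directions in the prostate gland and 0.0311% and 0.0285% in the bulbourethral gland. In the epididymis, where sperm mature, UNK, an RNA-binding zinc finger protein, had 18.1%, 50.9% and 88.1% against 1.20%, 5.63% and 17.7% in the 24 libraries of the other glands (46.6 ± 4.51 points, adjusted p = 1.06e-06). WDR13, a WD repeat protein, had 37.7%, 43.5% and 87.2% against 0%, 7.68% and 30.1% (44.6 ± 6.08 points, adjusted p = 9.36e-05). NADK, the kinase that makes NADP from NAD, had 9.91%, 11.3% and 39.5% against 0%, 2.50% and 7.93% (13.5 ± 2.52 points, adjusted p = 0.00219). In all 3 genes the epididymis libraries were above all others.

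The highest NADK value belonged to DSE epididymis replicate 1, and without that library the difference was 8.76 points (adjusted p = 2.4e-05), under the 10 points of a call. It was not called in the libraries of either breed alone, at 8.46 points in BMI and at 18.6 points in DSE (adjusted p = 0.0150 and 0.112). FL reads kept the NADK intron in 7 of 10 epididymis reads (39.7% to 89.2%) and in 0 of 36 others (upper bound 9.64%). For UNK they gave 4 of 55 (2.86% to 17.3%) against 2 of 158 (0.348% to 4.50%). The intron of NADK keeps the frame, and that of UNK brings in a stop.

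In the vesicular gland, one of the glands that add fluid to the semen, CIRBP, a cold-inducible RNA-binding protein, had 17.9%, 23.4% and 38.7% against 45.0%, 77.5% and 94.6% at its last intron (-50.7 ± 5.39 points, adjusted p = 3.58e-06). PI4KA, a kinase of phosphatidylinositol, had 6.02%, 26.3% and 48.6% against 0%, 0.533% and 3.24% (26.01 ± 3.91 points, adjusted p = 0.000209). MBOAT7, an acyltransferase of phosphatidylinositol, had 5.54%, 8.99% and 10.5% against 11.8%, 19.7% and 46.0% (-14.5 ± 1.63 points, adjusted p = 7.33e-06). The groups did not overlap in these 3 genes. MBOAT7 was highest in testis, at 28.1%, 36.5% and 46.0%, which was 21.6 ± 1.63 points above the mean of the other 4 glands (adjusted p = 7.87e-10), and its prostate gland libraries were at 11.8% to 14.2%. With every spanning isoform counted the CIRBP difference was -8.72 points and not called, and PI4KA was not called in the DSE libraries alone (26.6 points, adjusted p = 0.0761). HSPB6, a small heat shock protein of muscle, was lower too (67.5% against 96.1%, adjusted p = 6.47e-06) at a gap with CT-CC ends. The smooth muscle markers summed to 500.1 to 4061 TPM in these glands, 1395 to 19849 TPM in the epididymis and 169 to 3317 TPM in the prostate gland, and HSPB6 averaged 97.8% and 90.3% in the latter glands.

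In the bulbourethral gland, SART3, a factor that recycles spliceosomal particles, had 6.52%, 13.9% and 26.02% against 0%, 0% and 2.13% at its first intron (15.9 ± 1.66 points, adjusted p = 2.72e-06). All 6 libraries were above the others, and FL reads kept the intron in 9 of 34 bulbourethral reads (14.6% to 43.1%). On the log2 ratio of the forms with a pseudocount of 1 the SART3 call was lost (limma, adjusted p = 0.117).

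Among events that stayed even over the glands, SBF1, a pseudophosphatase, had 30.5% ± 4.54 (SD, n = 6) in testis and 33.1% ± 5.16 (SD, n = 24) elsewhere at an intron of 71 bases (-2.60 ± 2.13 points, adjusted p = 0.446). TNFRSF21, a death receptor, had 63.7% ± 5.93 and 64.7% ± 5.52 at a gap of 186 bases with AG-AG ends (-0.99 ± 2.68 points, adjusted p = 0.853).

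The second comparison asked whether the breeds differ. Few RI events did. In testis 33 events were called between DSE and BMI, 24 higher and 9 lower in DSE (0.936% of all events tested were called, 0.5% higher and 0.436% lower). In the epididymis 7 were called, 3 higher and 4 lower (0.132% of all, 0.0648% higher and 0.0674% lower). In the vesicular gland 17 were called, 6 higher and 11 lower (0.218% of all, 0.0907% higher and 0.127% lower). In the prostate gland 9 were called, 4 higher and 5 lower (0.117% of all, 0.0544% higher and 0.0622% lower), and in the bulbourethral gland 7, 2 higher and 5 lower (0.101% of all, 0.0389% higher and 0.0622% lower). Over all glands 31 were called, 12 higher and 19 lower in DSE (0.573% of all, 0.257% higher and 0.316% lower). Counted together, 52 events were called in at least 1 gland, of which 46 were called in 1 gland only, 3 in 4 and 3 in all 5. Over all events tested, 1.22% were called in at least 1 gland, 1.09% in 1 gland only, 0.0181% in 4 and 0.0285% in all 5. Calls in 1 gland only do not show that the other glands differ, which the interaction test addresses. Of the 33, 7, 17, 9 and 7 calls, 20, 3, 13, 5 and 3 were at introns of 50 bases or more with GT-AG, GC-AG or AT-AC ends.

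The number of calls depended on single libraries. The vesicular gland had 40 calls without BMI vesicular gland replicate 1 and 10 or 11 without BMI testis replicate 1 or 3, DSE testis replicate 3 or DSE bulbourethral gland replicate 2, libraries that enter through the shared estimate of the spread. The epididymis had 29 calls without DSE epididymis replicate 3 and 4 without BMI epididymis replicate 2, and the bulbourethral gland had 11 without BMI bulbourethral gland replicate 2. A fit to the 6 libraries of 1 gland alone called 3, 0, 1, 1 and 2 events, and in the epididymis 274 events had an unadjusted p under 0.05 in that limma fit.

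Over all glands, the breed differences at SFRP1, SURF4 and SLC46A1 were at short gaps. SFRP1, a secreted inhibitor of Wnt signalling, was at 100% in all 15 DSE libraries and at 0% to 45.4% in the 15 BMI libraries, a difference of 88.1 ± 2.75 points over all glands (adjusted p = 6.14e-15). SURF4, a cargo receptor of the endoplasmic reticulum, was at 68.0% to 100% in DSE and 7.30% to 13.9% in BMI at a gap of 7 bases (73.7 ± 3.70 points, adjusted p = 5.84e-11). SLC46A1, the proton-coupled folate transporter, was at 19.1% to 50.1% in DSE and 51.2% to 81.8% in BMI at a gap of 2 bases (-41.9 ± 3.10 points, adjusted p = 2.90e-08). In these 3 genes no DSE library overlapped a BMI library in any gland, and the gaps are too short for spliceosomal introns.

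Within SURF4 the DSE libraries numbered 1 were at 98.6% to 100% in the 5 glands, those numbered 2 at 68.0% to 74.6% and those numbered 3 at 74.6% to 85.6%. In JARID2, a cofactor of Polycomb complexes, with a gap of 13 bases, the BMI libraries numbered 3 were at 0% to 2.98% and the other BMI libraries at 40.7% to 61.8%, against 88.6% to 100% in DSE (61.6 ± 7.19 points, adjusted p = 1.98e-05). At these gaps the libraries of a breed with the same number had like levels in all 5 glands. If a number marks 1 boar, which the labels do not say, the test over all glands counts each boar 5 times and its p-values are too small. On the means of the 5 glands for each breed and number, 3 against 3, limma called 3 RI events in place of 31. SFRP1 (adjusted p = 0.0141) and SLC46A1 (0.0374) were among them, whereas SURF4 (0.126) and JARID2 (0.385) were not called. The third was an intron of 651 bases in ENSSSCG00000012088 (-13.7 points, adjusted p = 0.00399), named after its value was seen. On the log2 ratio of the forms, SURF4 was not called within any single gland (adjusted p = 0.0767 to 0.304) and was called over all glands (3.24e-05 and 9.01e-07 with pseudocounts of 0.1 and 1).

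At gaps of 50 bases or more, NDOR1, an electron carrier for iron-sulfur protein assembly, had a PSI of 0% to 6.94% in DSE and 11.9% to 48.9% in BMI (-28.7 ± 2.38 points, adjusted p = 1.58e-07), at an intron of 96 bases on an unplaced scaffold. STK24, a protein kinase, had 21.4% to 50.9% in DSE and 52.7% to 100% in BMI at a gap of 224 bases with GT-GC ends (-40.0 ± 5.08 points, adjusted p = 6.36e-05). GPAA1, a subunit of the enzyme that attaches GPI anchors, had 0% to 89.5% in DSE and 63.9% to 100% in BMI (-40.3 ± 6.94 points, adjusted p = 0.00207). NDOR1 and STK24 separated the breeds in every gland, whereas GPAA1 overlapped in testis and in the prostate gland. Within testis alone NDOR1 was not called (adjusted p = 0.402). On the means for each breed and number none of the 3 was called by limma (adjusted p = 0.0570 for NDOR1, 0.343 for STK24 and 0.316 for GPAA1).

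Within the testis, PGGHG, a glycosidase that acts on collagen, had 47.8%, 45.0% and 45.9% in BMI and 0%, 9.93% and 12.7% in DSE (-38.7 ± 3.74 points, adjusted p = 1.26e-06). EPN2, an endocytic adaptor, had 70.2%, 72.003% and 75.3% in BMI and 98.4%, 100% and 100% in DSE (27.0 ± 1.47 points, adjusted p = 2.10e-10). ADIPOR2, a receptor of adiponectin, had 83.1%, 79.2% and 82.0% against 95.7%, 100% and 95.2% at a gap with GC-AG ends (15.5 ± 0.855 points, adjusted p = 2.10e-10). In the other 4 glands the breed differences of these 3 genes were between -0.32 and 6.95 points.

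CIAO3, a factor of iron-sulfur protein assembly, had 100% in all 3 BMI testes and 34.6%, 64.9% and 56.0% in DSE (-48.1 ± 10.7 points, adjusted p = 0.0165). POMGNT1, an enzyme of dystroglycan glycosylation, had 100%, 54.0% and 69.5% against 24.3%, 7.99% and 16.8% (-58.1 ± 13.004 points, adjusted p = 0.0173). DDX5, at its intron of 205 bases, had 60.0%, 43.1% and 57.7% against 96.8%, 73.3% and 85.5% (31.6 ± 7.57 points, adjusted p = 0.0289). None overlapped, but each call was lost on leaving out 1 library: BMI testis replicate 2 or DSE testis replicate 1 for CIAO3 (adjusted p = 0.0511 and 0.0771), BMI testis replicate 1 or DSE testis replicate 2 for POMGNT1 (0.112 and 0.0666), and BMI testis replicate 2, DSE testis replicate 1 or DSE testis replicate 3 for DDX5 (0.152, 0.117 and 0.0626). With every spanning isoform counted, the difference was -6.43 points in CIAO3 and 3.57 points in DDX5, and neither was called.

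In the epididymis, ZFYVE19, a protein of the last step of cell division, had 3.76%, 2.01% and 0% in BMI and 28.5%, 27.9% and 31.7% in DSE (27.5 ± 4.50 points, adjusted p = 0.00605). LRRC14, a leucine-rich repeat protein, had 33.3%, 41.1% and 45.6% against 0%, 0% and 30.6% (-29.8 ± 5.94 points, adjusted p = 0.0329). ZFYVE19 and LRRC14 did not overlap in the epididymis. With every spanning isoform counted the LRRC14 difference was 0.797 points. The call of LRRC14 was lost without BMI epididymis replicate 2 or 3 or DSE epididymis replicate 1 or 2 (adjusted p = 0.104 to 0.174).

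In the vesicular gland, SLC10A3, a member of the bile acid transporter family, had 64.3%, 62.9% and 66.6% in BMI and 10.3%, 30.5% and 38.7% in DSE (-38.1 ± 7.92 points, adjusted p = 0.0327). SRSF7, at an intron of 589 bases, had 45.4%, 10.8% and 49.99% in BMI and 0% in all 3 DSE libraries (-35.4 ± 6.12 points, adjusted p = 0.00833), with forms that summed to 3.33 TPM on average and 0.905 points of difference when every spanning isoform was counted. DMTF1, a transcription factor, had 51.9%, 24.7% and 15.8% against 81.4%, 85.2% and 77.5% (50.6 ± 10.9 points, adjusted p = 0.0412). The breeds did not overlap in these 3 genes. The call of DMTF1 was lost on omission of any of 21 libraries and that of SLC10A3 without BMI vesicular gland replicate 2 or 3 or DSE vesicular gland replicate 1 or 2 (adjusted p = 0.0527 to 0.150). SLC10A3 was at -23.7 points and not called with every spanning isoform counted (adjusted p = 0.112).

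In the prostate gland, LIMK2, a kinase of the actin cytoskeleton, had 6.45%, 4.63% and 7.17% in BMI and 14.7%, 14.5% and 21.2% in DSE (10.7 ± 1.97 points, adjusted p = 0.0202). RASSF7, a protein of the Ras association domain family, had 8.91%, 13.99% and 21.6% against 1.20%, 2.14% and 1.24% (-13.3 ± 2.72 points, adjusted p = 0.0473), a call lost on omission of any of 25 libraries. In the bulbourethral gland, G6PC3, a glucose-6-phosphatase, had 24.6%, 19.3% and 22.8% in BMI and 3.70%, 8.31% and 8.98% in DSE (-15.2 ± 2.57 points, adjusted p = 0.00965). The breeds did not overlap in LIMK2, RASSF7 or G6PC3. The call of G6PC3 was lost without BMI or DSE bulbourethral gland replicate 1 (adjusted p = 0.0503 and 0.0596). That of LIMK2 was lost without BMI prostate gland replicate 2 or DSE prostate gland replicate 3 (9.98 and 8.53 points, adjusted p = 0.0684 and 0.110). Most of these calls within 1 gland were also lost on the log2 ratio of the forms by limma. With a pseudocount of 1 this was so of CIAO3 (adjusted p = 0.110), POMGNT1 (0.359) and DDX5 (0.101) in testis, LRRC14 (0.102) in the epididymis, SLC10A3 (0.0657), SRSF7 (0.579) and DMTF1 (0.231) in the vesicular gland, LIMK2 (0.0730) in the prostate gland and G6PC3 (0.327) in the bulbourethral gland, and with a pseudocount of 0.1 also of RASSF7 (0.0956).

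**Figure D5:**
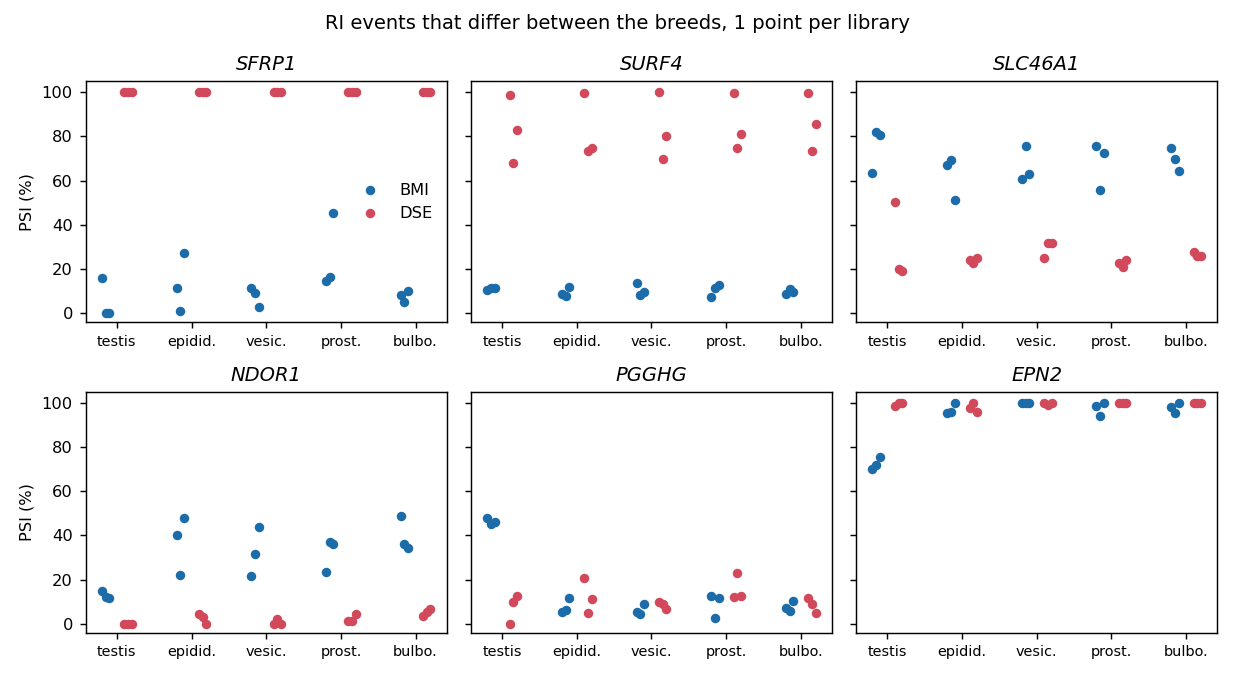
PSI (vertical axis, percent) of 6 RI events in each of the 30 RNA-seq libraries, by gland along the horizontal axis, with BMI in blue and DSE in red. SFRP1, SURF4, SLC46A1 and NDOR1 separate the breeds in all 5 glands, while PGGHG and EPN2 separate them in testis, where PGGHG is at 45.0% to 47.8% in BMI and 0% to 12.7% in DSE.

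Whether a breed difference depended on the gland was tested by the interaction of breed and gland, which called 12 events in 11 genes (0.285% of all events tested were called). ADIPOR2 (adjusted p = 1.49e-07), EPN2 (2.29e-07) and PGGHG (0.000113) led them, all with the difference in testis. DIPK1B, LNX2 and 2 overlapping events of ANAPC2, a subunit of the anaphase-promoting complex, had their largest difference in testis as well, G6PC3 in the bulbourethral gland, TOP3B in the vesicular gland, and ZFYVE19, ZMYM5 and LRRC14 in the epididymis. The events of ANAPC2 start at the same base and went in opposite directions in testis, 17.1 ± 2.10 and -22.6 ± 3.02 points. On the log2 ratio of the forms limma called none of the 12 (378 and 415 events had an unadjusted p under 0.05 with pseudocounts of 0.1 and 1).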

How the data were processed

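RNA-seq (30 libraries, 3 per breed and gland) and Iso-seq (10 libraries, 1 per breed and gland) were used. The authors deposited transcript abundances in TPM, made with Salmon 1.9.0 from trimmed reads against a merged annotation of Ensembl transcripts and Iso-seq isoforms on Sscrofa11.1. TPM sums to 1000000 in each library, so sequencing depth is not kept and its counting error is unknown. The deposited full-length read counts per isoform came from clustered Iso-seq reads and summed to 231413 to 458697 per library. The submitters' processing notes also name STAR 2.7.10a, GSNAP and Bowtie 1.3.1. The labels describe rRNA depletion for the RNA-seq libraries and the methods a poly-T bead purification, and which was used could change the share of unspliced RNA. The isoform classes and the annotation were deposited as text and coordinates, and the miRNA files were not used. There were 0 columns of values that belonged to no sample.

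RI events were rebuilt from the annotation: one isoform has an exon that spans the gap between 2 exons of another, with the same outer boundaries. PSI was the TPM of retained isoforms over that of both forms, and events needed a summed TPM of at least 1 in all 30 libraries. limma 3.58.1 (R 4.3.3) was fitted to PSI over all 30 libraries and 10 breed-gland groups, with Benjamini-Hochberg adjustment over the 38576 events of 7 splicing types. An event was called at an adjusted p under 0.05 and a difference of at least 10 percentage points, with two-sided tests. The study used SUPPA2 for its differential events, which was not run here. Nothing states whether equal replicate numbers in different glands are the same boar, so p-values measure the spread between these libraries, and the breed comparison over all glands was also fitted to 1 mean per breed and number. Named events were those that separated all libraries of the groups compared, ranked by difference, 8 in each direction for testis, 4 for each other gland and 3 for breeds, plus the 3 smallest interaction p-values, 5 highly retained and 5 even events, and up to 4 per gene of each gene list. The breed events over all glands needed only the same sign in all 5 glands. The members and lists were chosen with earlier results of these data known. FL PSI used at least 10 reads, and its 95% Wilson intervals cover counting error only. Alternatives changed the TPM minimum, event definition, isoforms, scale, weights, threshold, libraries and block. Python 3.11.15 with pandas 2.3.3, numpy 2.4.6, scipy 1.17.1 and matplotlib 3.10.9 were used, and the fits were tested on simulated data.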

Additional observations from a re-analysis of the deposited data

Results flagged for a closer look

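Of 50 groups of 6 libraries examined, 12 held a library set apart from the other 5 by Dixon's criterion, which chance meets in about 1 group in 20. The median PSI of DSE epididymis replicate 1 was 9.25%, against 4.08% to 5.77% in the other epididymis libraries, and the same library had 39.5% at NADK, against 9.91% to 14.7%. DSE testis replicate 2 stood apart at 6 events. It had 41.3% at ZFPL1 (others 89.0% to 97.5%), 77.2% at TRMT44 (89.8% to 94.9%) and 12.7% at NUCB1 (27.0% to 35.0%). It had 22.7% at FHIP1B (4.94% to 9.70%), 21.8% at PCBP2 (10.1% to 14.1%) and 100% at SMG6 (46.7% to 66.3%). DSE testis replicate 1 had 65.3% at DPH7 (49.1% to 54.9%). BMI testis replicate 1 had 100% at SRSF11 (27.8% to 51.4%). BMI testis replicate 2 had 80.6% at RPS24, where the others were at 100%, and 100% at SRSF1 (0% to 25.7%).

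The breed difference depended on the gland in 12 events by the interaction test of limma, led by ADIPOR2 (adjusted p = 1.49e-07), EPN2 (adjusted p = 2.29e-07) and PGGHG (adjusted p = 0.000113).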

How the results depend on the processing

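The median PSI of every testis library was below that of every library of the other glands under each TPM minimum, event definition and isoform choice tried, and with means in place of medians. The mean of the testis medians was 6.39% with any TPM above 0, 1.11% with at least 5 TPM, 7.04% with every spanning isoform counted and 1.93% without isoforms that had noncanonical junctions or junctions marked as template switching. It was 26.5% with means, and 2.25% to 2.42% with 1 library left out. Counts of calls are given below for testis, epididymis, vesicular, prostate and bulbourethral gland in that order, with the cause of each change not tested beyond the change in events or libraries that the setting makes.

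With any TPM above 0, the gland contrasts called 1240, 152, 240, 113 and 121 events, the test over all glands 1274, the breeds 89 in testis, 28 in the vesicular gland, 15 in the prostate gland and 59 over all glands, and the interaction 19. With at least 5 TPM the values were 238, 32, 50, 24 and 24, then 344, with 5, 3, 7, 3 and 4 between breeds, 11 over all glands and 4 for the interaction. With every spanning isoform counted they were 2040, 358, 420, 244 and 295, then 2427, with 110, 17, 42, 22 and 21 between breeds, 96 over all glands and 33 for the interaction. The differences that turned their sign there were those of LRRC14 at 0.797, SRSF7 at 0.905 and CCNL2 at -7.42 points. Without the noncanonical isoforms the breeds differed in 4 events of the prostate gland.

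On the log2 ratio of the forms with a pseudocount of 0.1, breed calls were 10 in testis and 4 each in the vesicular, prostate and bulbourethral glands. With a pseudocount of 1, the gland contrasts outside testis called 161, 211, 108 and 118 events, and the breeds 9 in testis, 3 in the vesicular and 4 in the bulbourethral gland. The interaction called 0 on both scales by limma, with 378 and 415 unadjusted p under 0.05, and no other tool was run. Array weights gave 100 and 115 calls in the prostate and bulbourethral glands and 18 and 15 between breeds there. A difference of 20 points left 273, 18, 46, 18 and 21 gland calls, 406 for any gland, 16 breed calls in testis, 11 in the vesicular gland, 14 over all glands and 6 for the interaction.

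The fit with a replicate block gave breed calls of 4, 6, 2 and 2 in the 4 glands outside testis, 17 over all glands and 7 for the interaction. It ended the named breed calls of CIAO3 in testis (adjusted p = 0.0831), ZFYVE19 (0.0644), NDOR1 (0.0644) and SLC46A1 (0.190) in the epididymis, and DMTF1 (0.180), SLC10A3 (0.0751), SRSF7 (0.0646) and SLC46A1 (0.165) in the vesicular gland. It did so for LIMK2 (0.0702), RASSF7 (0.184), NDOR1 (0.140) and SLC46A1 (0.117) in the prostate gland and for G6PC3 (0.162), NDOR1 (0.0914) and SLC46A1 (0.160) in the bulbourethral gland, and CLK1 lost its testis call (0.0603). The breed block joins a BMI and a DSE library of the same gland and number, and the labels give no reason to pair them. Over all events the deviations of same-numbered libraries had a mean correlation of -0.05 within glands (highest 0.14) and 0.03 within breeds (highest 0.27), and 20 of 30 libraries correlated best with their own number in the other glands of the breed. With SURF4 and JARID2 this is a hint from the data, not from the design, that a number marks 1 boar within a breed, and the numbers were not taken to pair the samples. On means of the 5 glands for each breed and number, a setting chosen after seeing the data, the breeds differed in 3 events over all glands. Fits to the 6 libraries of one gland called 3, 0, 1, 1 and 2 breed events, with 274 unadjusted p under 0.05 by limma in the epididymis. BMI libraries alone called 40 events in the epididymis, 90 in the vesicular gland, 29 in the prostate gland and 422 for any gland. DSE libraries alone called 339, 26, 31, 15 and 10, and 248 for any gland. In settings chosen after seeing the data, leaving out the 4 libraries of lowest array weight gave 114 calls in the bulbourethral gland, 53 between breeds in the vesicular gland and 20 interactions, and introns of at least 50 bases with GT-AG, GC-AG or AT-AC ends held 20 breed calls in testis, 3 in the epididymis, 5 in the prostate gland, 3 in the bulbourethral gland and 20 over all glands.

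With 1 library left out, calls ranged from 581 to 684 in testis, 49 to 115 in the epididymis, 93 to 158 in the vesicular gland, 38 to 85 in the prostate gland and 42 to 85 in the bulbourethral gland, and from 686 to 857 for any gland. The lowest counts outside testis included 49 and 52 without BMI epididymis replicate 3 or DSE epididymis replicate 1, 38 without DSE prostate gland replicate 3 and 42 without BMI bulbourethral gland replicate 1. Breed calls ranged from 27 to 48, 4 to 29, 10 to 40, 6 to 12 and 6 to 11, from 25 to 33 over all glands, and interactions from 9 to 17. Of 83 named differences, 2490 values with 1 library left out held 2388 that kept direction and call, 102 from 17 differences that lost the call and 0 that reversed. The other alternatives gave 874 values, of which 741 kept both, 130 lost the call and 3 reversed.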
